A study of Homo sapiens with 2 samples.

Results

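The clustered protocadherin genes were examined for NUDT21 CUT&Tag peaks at their own 5′ ends. The members were the GENCODE 44 protein-coding genes on chromosome 5 whose names begin with PCDHA, PCDHB, PCDHGA, PCDHGB or PCDHGC, followed by a number or by C and a number. There were 53 of them among 20033 protein-coding genes on chromosomes 1 to 22, X and Y. Of these, 15 belonged to PCDHA, 16 to PCDHB and 22 to PCDHG. The samples were 2 replicates of J.gamma1, a T-ALL line that derives from Jurkat cells and lacks phospholipase C gamma 1, each profiled with the NUDT21 antibody. They carried no treatment and formed 1 group, and no control library was analysed here, so conditions could not be compared and no test was made. In CUT&Tag a tethered transposase cuts chromatin near the antibody's target. NUDT21 is the small subunit of the cleavage factor that binds UGUA in pre-mRNA and takes part in the choice of polyadenylation sites.

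Clustered protocadherins are adhesion proteins of the cadherin superfamily, best known from neurons, where different cells express different combinations and homophilic binding lets a neuron tell its own branches from those of others. In PCDHA and PCDHG each large variable exon has a promoter of its own and is spliced to constant exons that all genes of the cluster share, whereas a PCDHB gene is a single large exon. The DNA-binding protein CTCF and the cohesin complex bind many of these promoters and bring them to distant enhancers. The C-type genes, PCDHAC1, PCDHAC2, PCDHGC3, PCDHGC4 and PCDHGC5, stand at the ends of the alpha and gamma clusters and are controlled differently from the others.

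The promoters of the family carry short sequences in common, which are shown to let the classes be compared at the starts where peaks were looked for. RefSeq promoters (GRCh38.p14, 250 bases before to 50 after the start) were available for 47 of the 53 members. Those of PCDHA3, PCDHA13, PCDHB6, PCDHB11, PCDHGA12 and PCDHGC5 were not matched. For each class a word of 8 bases that no other word exceeded in the number of its promoters, on either strand, is in capitals within 30 bases of the plus strand, on which all members lie. As many promoters held each of 2 words in PCDHA, 2 in PCDHB, 4 in PCDHGA and 6 in PCDHGB, and of these the word least frequent among all promoters is shown. The PCDHGA8 window precedes the RefSeq start, which lies more than 1 kb from the annotated gene 5′ end used for the peak counts.

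PCDHA1, chr5:140786087-140786116: ttggccacatgATGTCGCTgtacaccacaa
PCDHA4, chr5:140806980-140807009: ggagccacatgATGTCGCTctttaccacaa
PCDHA12, chr5:140875245-140875274: tcagtcacatgATGTCGCTctacactcaga
PCDHB2, chr5:141094545-141094574: agagacgcgggGTGGCGCTgcagccttaga
PCDHB13, chr5:141213866-141213895: gaggacgcgtgGTGGCGCTgcaggataaga
PCDHB15, chr5:141245315-141245344: gacaacgcatgGTGGCGCTgcaggctaagg
PCDHGA1, chr5:141330392-141330421: gcagtaactggTTAGGACTgtgggcgccgc
PCDHGA8, chr5:141392557-141392586: gcagtaactatTTAGGACTgtaagcgccgc
PCDHGA9, chr5:141402703-141402732: gtagtaacggcTTAGGACTctgagcgccgc
PCDHGB4, chr5:141387613-141387642: ctagtgctgacTCTGGGCGccgctgttggc
PCDHGB5, chr5:141397859-141397888: ctagtgctgacTCTGGGCGccgctgttggc
PCDHGB6, chr5:141407920-141407949: cgcacggagccTCTGGGCGccgctgtcggc

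ATGTCGCT was present in 9 of 11 matched PCDHA promoters other than the C-type, and in 43 of all 15345 RefSeq promoters (0.28%). GTGGCGCT was present in 13 of 14 PCDHB promoters and in 235 of all promoters (1.53%). TTAGGACT was present in 6 of 11 PCDHGA promoters (0.437% of all), and TCTGGGCG in 5 of 7 PCDHGB promoters (2.47% of all). Among promoters with GC content like that of the class, the shares were 1%, 0.714%, 1.95% and 1.17%, in the order of the words above. None of these words was found in a matched promoter of another class of the family. The windows of PCDHGB4 and PCDHGB5 were identical. The shorter word CGCT, which ends both the alpha and the beta word, was present on either strand in 46 of 47 matched members. This compares with 81.4% of all promoters and 38.9% of promoters of like GC content. TGTA is the DNA form of the NUDT21 recognition word UGUA. It was present on either strand, not only in the sense of the gene, in 42 of 47 members (89.4%). The share was 51.6% of all promoters and 87.2% of those of like GC content. These matches describe letters in the windows and do not show binding.

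No clustered protocadherin gene had a NUDT21 peak within 1 kb of its 5′ end in either replicate. The count was 0 of 53 in replicate 1, where 61.5% of all protein-coding genes had such a peak. It was again 0 of 53 in replicate 2, where 47.4% of all genes had one. Across all genes 46.6% had a peak in both replicates and 37.7% in neither, and the latter class held all 15 PCDHA, all 16 PCDHB and all 22 PCDHG genes. On the main chromosomes, the replicate 1 list held 92722 peaks and the replicate 2 list held 66671. Read totals are unknown. The number of fragments at a summit, recovered from the fold and the p-value of each peak, had a median of 29 and 20 over 5000 sampled peaks of each list. Near the lowest control levels, the fewest fragments that made a peak were 12 and 8. Over all sampled peaks the fewest were 11 and 8. Control levels at the members were not examined, so the smallest pile of fragments that would have made a peak there is not known.

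**Figure D1:**
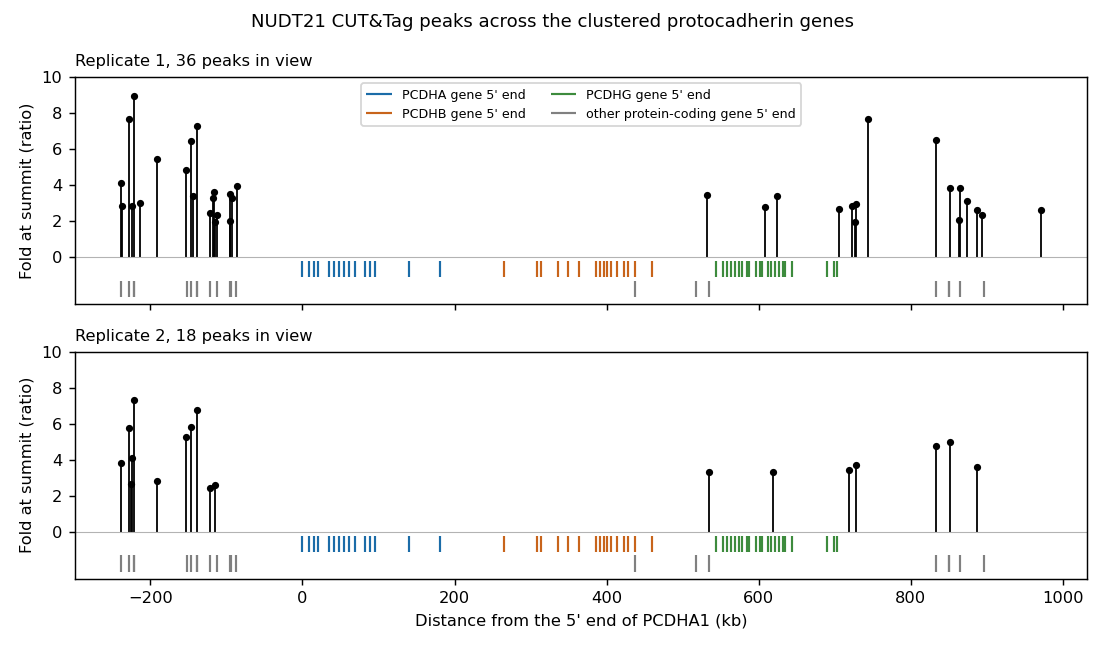
NUDT21 peaks of each replicate by distance from the 5′ end of PCDHA1 (kb) and fold at the summit (ratio), with ticks below for the 5′ ends of members and of other protein-coding genes. No peak stands over the PCDHA or PCDHB ticks, replicate 1 has 5 peaks and replicate 2 has 2 in the PCDHG span, and peaks of both replicates stand on each side of the clusters.

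Within 3 kb of the 5′ end, 4 members had a peak in replicate 1 (65.1% of all genes), namely PCDHGB5, PCDHGB6, PCDHGA10 and PCDHGC5. A single member, PCDHGA9, had one in replicate 2 (52.2% of all genes), and 0 had one in both replicates (51.4% of all genes). The nearest peak edge lay 1865 bp from PCDHGB6, 2035 bp from PCDHGC5, 2700 bp from PCDHGA10 and 2901 bp from PCDHGB5 in replicate 1. It lay 1875 bp from PCDHGA9 in replicate 2. In replicate 1, PCDHGB6 and PCDHGA10 were counted through the same peak, which lay in the variable exon of PCDHGB6. The peak counted for PCDHGB5 lay in the variable exon of PCDHGA8. PCDHGA8 itself was not counted, as its annotated 5′ end lay 4218 bp from that peak. All of these genes belong to the gamma cluster.

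The clusters differed in how far their genes lay from any peak. For PCDHA the distance to the nearest peak edge ran from 85.1 to 265 kb with a median of 140 kb in replicate 1, and from 114 to 295 kb with a median of 169 kb in replicate 2. PCDHA1, the first gene, was nearest in both lists and PCDHAC2, the last, was farthest. For PCDHB the range was 72.1 to 266 kb (median 137 kb) in replicate 1 and 75 to 269 kb (median 140 kb) in replicate 2. PCDHB1 was the farthest beta gene and PCDHB15 the nearest in both lists. For PCDHG the range was 1.86 to 37.2 kb (median 12.2 kb) and 1.88 to 40.5 kb (median 18.9 kb). The gamma distances therefore did not overlap those of the other clusters in either replicate. Among all protein-coding genes the median distance was 0 kb in replicate 1 and 1.8 kb in replicate 2. There were 31 members at 50 kb or more from any peak in replicate 1 (20.6% of all genes) and 31 in replicate 2 (29.9% of all genes), and the same 31 in both (19.6% of all genes). These were every PCDHA and every PCDHB gene, and 0 of the 22 PCDHG genes. Neighbouring genes share the same nearest peaks, so their distances are not independent measurements.

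**Figure D2:**
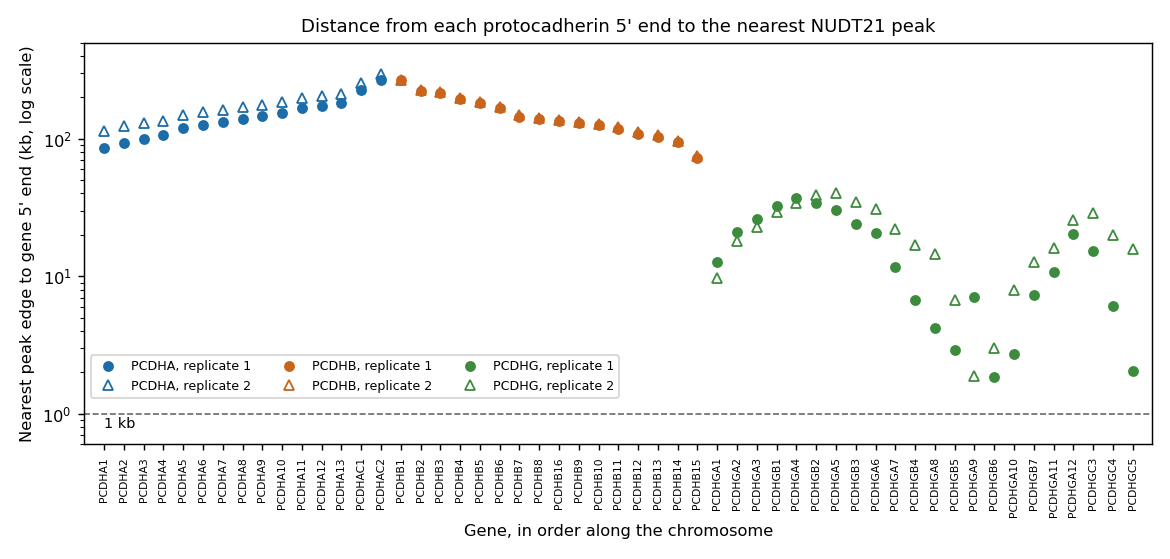
Distance from the 5′ end of each member to the nearest peak edge (kb, log scale), in order along the chromosome, with filled circles for replicate 1 and open triangles for replicate 2. All points lie above the dashed line at 1 kb, PCDHA and PCDHB lie at 72.1 kb or more, and PCDHG at 40.5 kb or less.

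All alpha and beta genes fell into 1 stretch of chromosome 5 without a peak. In replicate 1 this stretch ran from position 140701008 to 141317493 (hg38) and was 616 kb long. It held 33 protein-coding 5′ ends, which were the 31 alpha and beta members, ENSG00000279983 and SLC25A2, a mitochondrial ornithine carrier. The start of ENSG00000279983 (141223372) lies beside that of PCDHB14 (141223343), on the same strand, so these are not separate places. In replicate 2 the stretch ran from 140671701 to 141320406 and was 649 kb long, with 37 protein-coding 5′ ends. The additional genes there were DND1, HARS1, HARS2 and ZMAT2. Of 92698 peak-free intervals in replicate 1, 5 held more 5′ ends and 772 were longer. Of 66647 intervals in replicate 2, 8 held more 5′ ends and 748 were longer. No other interval held as many 5′ ends within the same or a shorter length, in either list. This comparison takes the stretch's own length and count as its limits. In replicate 2 an interval of 660 kb held 46 ends. Some shorter intervals were denser, such as 165 kb with 17 ends in replicate 1 and 83.8 kb with 14 in replicate 2. The median interval was 2.24 kb in replicate 1 and 2.65 kb in replicate 2.

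**Figure D3:**
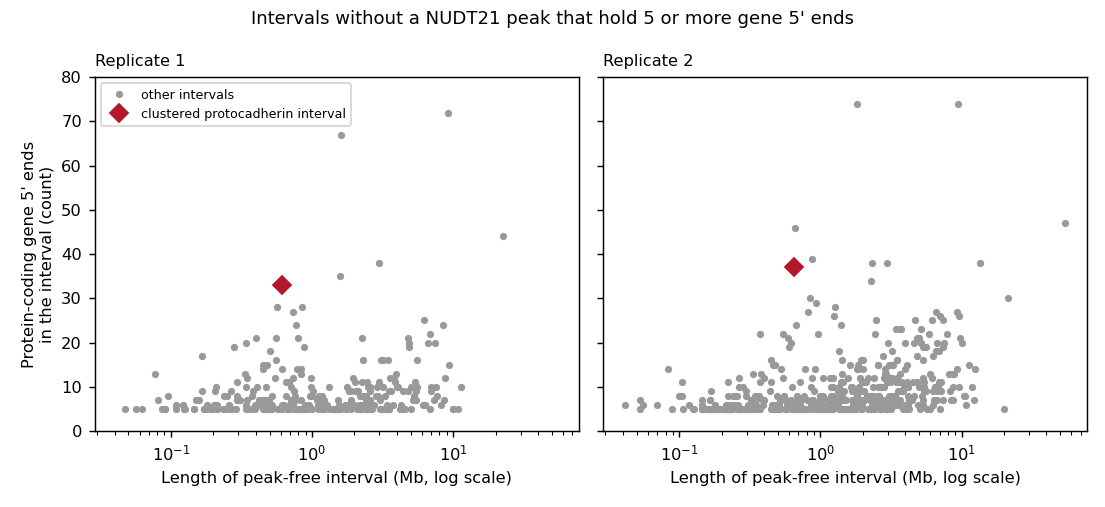
Length of each interval without a peak (Mb, log scale) against the number of protein-coding 5′ ends in it, for intervals with at least 5. The diamond marks the interval with the PCDHA and PCDHB genes, at 616 kb and 33 ends in replicate 1 and 649 kb and 37 ends in replicate 2, and no grey point lies both as high and as far to the left.

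Peaks were present on both sides of the clusters. The 250 kb before PCDHA1 held 20 peaks in replicate 1 and 11 in replicate 2, and 10 in each list overlapped a peak of the other. That is 80 and 44 peaks per Mb, beside 30 and 21.6 per Mb across the main chromosomes. The 250 kb after PCDHG held 10 and 4 peaks, or 40 and 16 per Mb, which in replicate 2 is below the value for the main chromosomes. The 727 kb from PCDHA1 to the end of PCDHG held 6 peaks in replicate 1 (8.25 per Mb) and 3 in replicate 2 (4.13 per Mb), and 0 of them overlapped between replicates. The PCDHA span of 226 kb, the PCDHB span of 198 kb and the 39 kb between them held 0 peaks in either list. The PCDHG span of 182 kb held 27.4 peaks per Mb in replicate 1 and 11 per Mb in replicate 2.

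Most genes beside the members had peaks, except, in replicate 2, those nearest to PCDHA1. Of 13 protein-coding genes in the 250 kb before PCDHA1, 12 had a peak within 1 kb in replicate 1, 9 in replicate 2 and 9 in both. The 4 nearest to PCDHA1, which were DND1, HARS2, HARS1 and ZMAT2, had none in replicate 2, and ZMAT2 had none in either. Of 5 genes in the 250 kb after PCDHG, 4, 3 and 3 had one. DIAPH1, an actin-nucleating formin that is the next gene after PCDHG, had folds of 6.52 and 4.79. The 3 non-member genes between PCDHA1 and the end of PCDHG include ENSG00000279983, which starts beside PCDHB14. Of these 3, 0 had a peak in replicate 1 and 1 in replicate 2. This was TAF7, a subunit of the general transcription factor TFIID, with a fold of 3.33 and 19 fragments at the summit. In replicate 1 the nearest peak edge lay 2966 bp from TAF7 (fold 3.47).

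Across the genome, genes with GC-poor promoters seldom had a peak, and most protocadherin promoters are GC-poor. Within 500 bp of the 5′ end the GC content of the members had a median of 44.4% (range 28.7 to 64.3%), against 59.2% for all genes. The lowest values were 28.7% for PCDHA11 and 32.4% for PCDHA9. Their annotated 5′ ends lie 774 and 610 bp upstream of the canonical transcript start, which these windows do not reach. The same holds for PCDHGA8 (48.7%), whose annotated 5′ end lies 2476 bp upstream of it. The median was 43.6% for PCDHA, 42.5% for PCDHB and 46.8% for PCDHG. Each member was therefore set beside the other protein-coding genes in its own GC band of 2 percentage points. Of such genes 13.9% had a peak in both replicates on average, 20.2% in replicate 1 and 14.8% in replicate 2. Over 53 genes 13.9% corresponds to 7.36 genes, and 0 were found.

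By cluster, genes of like GC content had a peak in both replicates at 13.4% for PCDHA, 6.88% for PCDHB and 19.3% for PCDHG. These shares correspond to 2.02, 1.1 and 4.25 genes. Within the gamma cluster, apart from its C-type genes, the share was 13.2% for PCDHGA and 17.7% for PCDHGB, or 1.59 and 1.24 genes. The alpha share was carried mostly by PCDHAC1 and PCDHAC2. For the other 13 alpha genes it was 5.75%, or 0.747 genes. For these alpha genes and for the beta genes a count of 0 thus lies close to that of genes of like GC content. It lies farther from that of genes of like CpG ratio, given below. The gap was widest for the C-type genes, which have the most GC-rich promoters of the family (53.3 to 64.3%). Genes of like GC content had a peak in both replicates at 53.7%, which corresponds to 2.69 of 5 genes. The nearest peak edge lay 225 and 255 kb from PCDHAC1 (GC 63.0%), and 265 and 295 kb from PCDHAC2 (GC 64.3%), for replicates 1 and 2. It lay 15.2 and 29 kb from PCDHGC3, 6119 and 19984 bp from PCDHGC4, and 2.04 and 15.9 kb from PCDHGC5. In wider bands, 12.2% of 3028 other genes with 40 to 50% GC had a peak in both replicates, beside 0 of 45 members. At 50 to 66% GC this was 55.5% of 10887 other genes, beside 0 of 6 members.

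**Figure D4:**
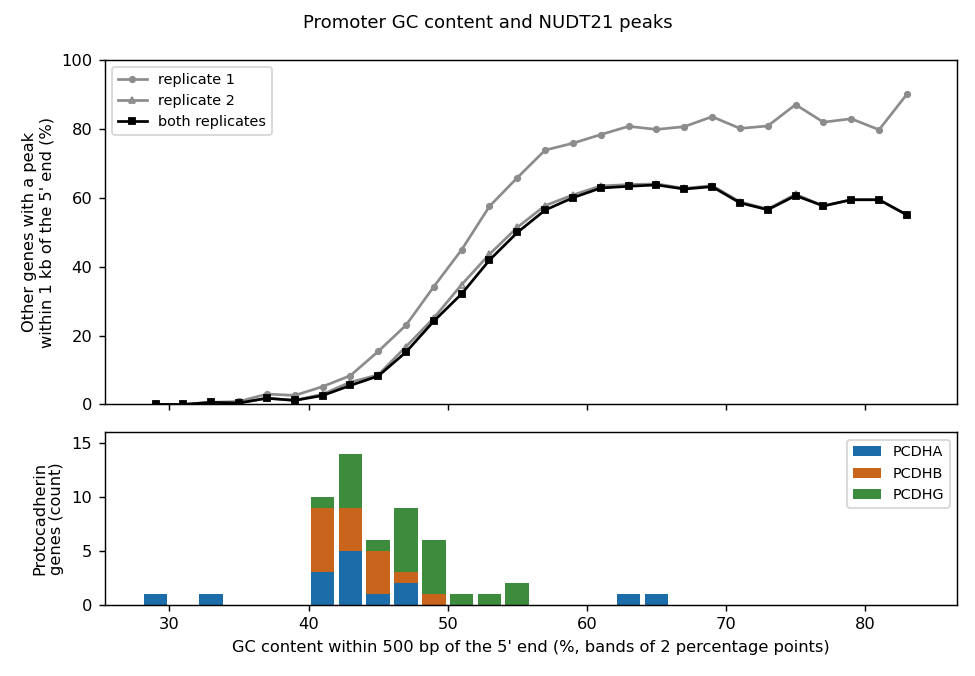
Top, percent of other protein-coding genes with a peak within 1 kb of the 5′ end by promoter GC content, for each replicate and for both (the replicate 2 line runs almost under the line for both). Bottom, number of members per GC band, most of which lie between 40 and 50%, where 12.2% of other genes had a peak in both replicates.

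Promoter GC content and CpG content gave different comparisons. The observed over expected CpG ratio within 500 bp of the 5′ end had a median of 0.65 for the members and 0.69 for all genes. It was 0.77 for PCDHA, 0.49 for PCDHB and 0.66 for PCDHG. Other genes with a like CpG ratio had a peak in both replicates at 49.6%. Those alike in both GC content and CpG ratio had one at 29%, a comparison added after seeing the data. For the 13 alpha genes other than the C-type, these shares were 53.2% and 30.4%, which correspond to 6.92 and 3.96 genes. For the beta genes they were 41.4% and 15%, or 6.62 and 2.4 genes. DNA methylation was not measured, and its part in the absence of peaks was not tested.

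The gamma cluster held the peaks nearest to any member, and 4 of them lay in variable exons. In replicate 1, a peak at chr5:141394375-141395046 lay in the variable exon of PCDHGA8, with a fold of 2.78 and 20 fragments at the summit. The peak at chr5:141409886-141410287 lay in the variable exon of PCDHGB6 (fold 3.39, 23 fragments), and the one at chr5:141491116-141491500 in that of PCDHGC5 (fold 2.69, 30 fragments). In replicate 2, the peak at chr5:141404653-141405017 lay in the variable exon of PCDHGA9 (fold 3.33, 19 fragments). All 4 folds were below the median of their list, which was 3.95 in replicate 1 and 4.23 in replicate 2. No exon had a peak in both replicates.

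The summits of these peaks lay at a like place in their exons. They were 2022 bp after the canonical transcript start in PCDHGA8 (whose annotated gene 5′ end lies 2476 bp farther upstream), 2028 bp in PCDHGB6, 2112 bp in PCDHGA9 and 2227 bp in PCDHGC5. In PCDHGA and PCDHGB, the GC content of the variable exon reached 66.4% ± 2.9 (SD, n = 19 genes) in the bin of 250 bp that begins 2000 bp after the start, against 38.7% ± 5.5 in the 250 bp before the start. The 4 peaks had a GC content of 64.1% (PCDHGA8), 64.4% (PCDHGB6), 61.1% (PCDHGA9) and 59.2% (PCDHGC5), and the median peak had 58.1% in replicate 1 and 57.8% in replicate 2. The corresponding bin reached 66.2% ± 1.7 in the 13 PCDHA genes other than the C-type and 68.7% ± 6.9 in the 16 PCDHB genes, and 0 peaks lay there. In the 5 C-type genes, it was 52.5% ± 3.1. The bin held 57.6% GC in PCDHGC5 itself. A high GC content at this place was thus found in exons with and without peaks, and its part in the peaks was not tested.

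**Figure D5:**
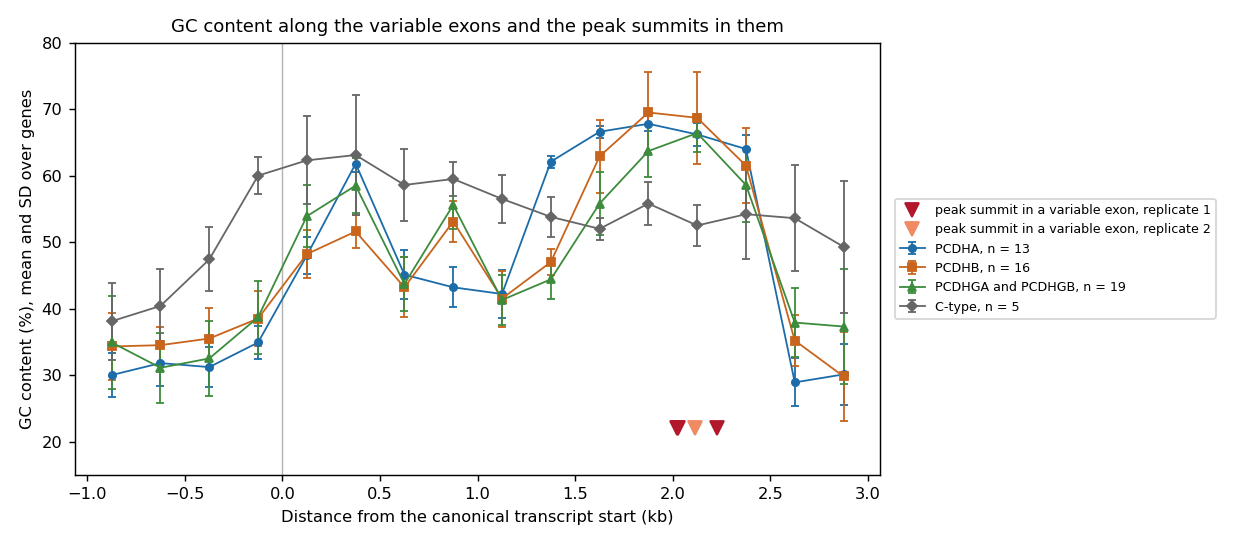
GC content in bins of 250 bp around the canonical transcript start (mean and SD over genes), for PCDHA, PCDHB, PCDHGA with PCDHGB, and the C-type genes. Triangles mark the summits of the 4 peaks in variable exons, at 2022 to 2227 bp (the summits at 2022 and 2028 bp overlap), where the alpha, beta and gamma profiles are high and the C-type profile is not.

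The constant region of PCDHG also held peaks in single replicates. In replicate 1 a peak at chr5:141508503-141509699 lay in an intron between constant exons (fold 2.85, 33 fragments). Another, at chr5:141512287-141512707, lay in the last exon, which all 22 gamma genes share (fold 1.97, 31 fragments, the control level there being 14). In replicate 2 a peak at chr5:141504981-141505575 reached the second constant exon, at chr5:141505393-141505481 (fold 3.45, 23 fragments). The constant exons of PCDHA held 0 peaks in either list.

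The place nearest to the family with a peak in both replicates lay just past the gamma cluster, between the 3′ ends of PCDHG and DIAPH1, which is transcribed toward it. PCDHG ends at position 141512975, and the peaks began 1037 bp after it in replicate 1 (fold 2.95, 33 fragments) and 1103 bp after it in replicate 2 (fold 3.69, 22 fragments). They ended 213 and 192 bp from the 3′ end of DIAPH1. Within 3 kb of the 3′ end all 22 gamma genes were counted in replicate 1 (43.9% of all genes), in replicate 2 (37.5%) and in both (35.9%), but they share 1 end and are 1 site. Within 1 kb they were counted in replicate 1, through the peak in the last exon (33% of all genes), and 0 were counted in replicate 2 (27.1% of all genes) or in both (25.7% of all genes). The shared 3′ end of PCDHA lay 305 and 308 kb from the nearest peak. The 3′ ends of the PCDHB genes lay 68.1 to 258 kb and 71 to 261 kb from one.

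Members resemble one another in sequence, and reads that fit several places can be lost or misplaced. Of the words of 50 bases within 1 kb of the members' 5′ ends, 5.5% occurred more than once on the main chromosomes. This share was 6.31% for PCDHA, 6.92% for PCDHB and 3.92% for PCDHG. The median gene had 0.256% such words, 24 genes had 0, and the highest value was 38.7%, for PCDHB8 and PCDHB13. Most of the sequence at the 5′ ends was thus unique at this length. Within the peak in PCDHGA8, 22.6% of the words were repeated, and in the peaks of PCDHGB6, PCDHGA9 and PCDHGC5 there were 0.

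Genes related to the family were read in the same way, as counts beside the 46.6% of all genes with a peak in both replicates. Of 13 protocadherin genes outside the clusters, 2 had a peak in replicate 1, 1 in replicate 2 and 1 in both. The shared one was PCDH12, an endothelial protocadherin on chromosome 5, with folds of 2.10 and 2.24. PCDH9 had a peak in replicate 1 (fold 3.63). Their promoter GC content had a median of 58.8%, close to that of all genes, and 10 of 13 lay 50 kb or more from a peak in both replicates.

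Of 15 genes whose products are known to act at clustered protocadherin promoters, 14 had a peak in replicate 1 and 8 in both. The shares of all genes were 61.5% in replicate 1 and 46.6% in both, the latter near the 53.3% of this list. The median promoter GC content of the list was 67.3%. Of other genes with 66 to 68% GC, 80.6% had a peak in replicate 1 and 62.5% in both. CTCF had folds of 9.05 and 9.98. The cohesin subunit genes SMC1A (8.30 and 9.20), SMC3 (3.75 and 3.85) and STAG1 (6.15 and 4.54) had peaks in both lists, as did NIPBL, which encodes the cohesin loader (5.85 and 3.34). SMCHD1, a repressor of the clusters, had folds of 3.53 and 3.74, and DNMT1, the maintenance DNA methyltransferase, 5.54 and 6.48. RAD21, a core cohesin subunit, the cohesin release factor gene WAPL, SETDB1, REST, ZNF274 and DNMT3B had a peak in replicate 1 and none within 1 kb in replicate 2. STAG2 had a peak in neither. Of 8 genes for partners of the cytoplasmic domains, 5 had a peak in replicate 1 and 2 in both. These were the kinase gene PTK2B, with folds of 6.71 and 4.68, and AXIN1, a scaffold of the Wnt pathway, with 26.27 and 9.39.

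Other gene families that stand in tandem arrays did not share one pattern. Of 240 ZNF genes on chromosome 19, 120 had a peak in both replicates (50%), and of 39 HOX genes, 11 (28.2%). In replicate 1 these numbers were 148 ZNF and 24 HOX genes, and in replicate 2 they were 121 and 11. Of 400 olfactory receptor genes, 5 had one (1.25%), with a median promoter GC content of 39.7%, below the 44.4% of the clustered protocadherins. Their median distance to a peak was 167 kb in replicate 1 and 217 kb in replicate 2. Lists of cell type genes were present in part. A peak in both replicates was found at 7 of 10 T-cell genes, 4 of 5 B-cell genes, 3 of 5 myeloid genes and 2 of 8 neuronal genes. A peak near a gene is no measure of its expression, so these lists neither check the cell type nor give the RNA level of any protocadherin.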

How the data were processed

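Per the labels and the study's methods, the authors trimmed reads with fastp, aligned them to hg38 with Bowtie2 2.2.5, removed duplicates with Picard and called peaks in each replicate with MACS3 3.0.1. Each deposited list gave the fold at the summit (a ratio), the −log10 p-value and −log10 q-value, and a score, which was not used. The lowest −log10 q was 2.0 in both deposited lists. A control library is not described in the sources used here, but the deposited folds of replicate 1 were solved with a pileup scaled by 0.921 (1.0 in replicate 2), as MACS gives when it scales a library to a control of another depth. What the folds, fragments and control levels were measured against is therefore not known. Fragments at the summit and the control level were solved from the fold and the p-value, in 100% of 5000 sampled peaks per list.

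A gene had a peak if the nearest peak edge lay within 1000 bp of its 5′ end in GENCODE 44. GC and CpG content were read from hg38 within 500 bp of that end, and like-GC shares were averaged over the members' bands. Python 3.11.15, numpy 2.4.6, pandas 2.3.3 and pysam 0.24.0 were used. The distances and the fragment solution were tested on simulated data. The members, the gene lists and the words were chosen with earlier results of these data known, and the HOX, ZNF and olfactory receptor lists and the joint GC and CpG comparison were added after the data were seen. Members were to be named by class and, with a peak, by value. As none had a peak, the C-type genes, the members with a peak within 3 kb and those at the ends of each cluster are named, and they and the genes named from each list were picked after their values were seen. Alternatives were other distances, peak summits, stricter peaks, the canonical transcript, other windows and bands, and each replicate alone.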

Additional observations from a re-analysis of the deposited data

How the results depend on the processing

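No member had a peak in both replicates under any of the settings run, but settings that shorten the distance or remove peaks can only keep a count of 0, so they show nothing about stability. Within 3 kb of the 5′ end, 4 members had a peak in replicate 1 and 1 in replicate 2, since more distant peaks count. The difference between the members and genes of like GC content in the percent with a peak in both replicates was -13.9 percentage points. Its sign is fixed by the count of 0. It moved by less than the SD between replicates, 3.8 percentage points, in several settings. These were 500 bp (-10.9), peak summits (-10.3), −log10 q of at least 5 (-11.4) and GC bands of 5 percentage points (-13.9). They also included the promoter window of 250 bp before to 50 bp after (-14.7) and leaving out replicate 1. The other values given here moved by more than this SD. The difference was -19.1 within 3 kb, -4.85 with the 10000 peaks of highest −log10 p in each list and -9.35 from the canonical transcript start. With 1 replicate left out it ranged from -20.2 (without replicate 2) to -14.8 (without replicate 1). It was -49.6 for genes of like CpG ratio and -29 for genes alike in both, a comparison added after seeing the data. Since the members stayed at 0, each shift came from the share taken from other genes. That share also depends on the bands in which the members' own GC content and CpG ratio place them. The cause of the shifts was not tested further. The fold percentile and the summit distance of member peaks gave no value, since no member had a peak within 1 kb. No paired analysis was possible because there was a single group. With 2 libraries of 1 group the error of a condition is unknown, and depth limits how small a pile of fragments could be called.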
